A study of Mus musculus with 7 samples.

Results

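Genes that move, store or regulate iron were followed in the corpus of the mouse stomach, where the acid-secreting glands lie, during a reversible ablation of parietal cells: the hepcidin genes Hamp and Hamp2, the hepcidin regulator Hfe, the importers Tfrc and Slc11a2, the ferritin subunit gene Fth1 and the iron exporter gene Slc40a1. They are 7 of the 22180 genes measured, and each had 1 probe set annotated to it alone, which was used. The genes were chosen by their function and with measured values in view, since Hamp2 was already known to be far below the control on these arrays. Their differences from the control are therefore given as a description with no test. Only 72 h against 48 h, and the trend over the toxin arrays, were tested for them.

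All mice were transgenic Atp4b-DTR mice aged 8 to 12 weeks, in which parietal cells, the cells that express Atp4b, carry the receptor for diphtheria toxin. Toxin at 225 ng per mouse was injected on 3 days, and the corpus was taken 24 h (1 array), 36 h (1 array), 48 h (2 arrays) or 72 h (2 arrays) after the last dose. The control was 1 array of corpus from the same genotype given saline, and littermates served as controls only where possible. Values are log2 signal, so a difference of 1 is 2-fold. The number of arrays limits the precision, and since there was 1 control array, its own peculiarities are part of every difference from control given here.

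Iron leaves a cell through 1 known exporter, ferroportin, the product of Slc40a1. Hepcidin is a peptide hormone, made mainly by hepatocytes, that binds ferroportin and has it degraded, and parietal cells of the stomach have also been reported to make it. Mice carry a pair of hepcidin genes: Hamp encodes the iron-regulating hormone, while the peptide encoded by Hamp2 is not known to act on iron. BMP signalling through SMAD proteins and interleukin 6 signalling through STAT3 switch on Hamp. In cells low in iron, iron regulatory proteins protect the transferrin receptor mRNA from decay and block translation of ferritin mRNA, so an mRNA level of these genes is not a protein level.

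The upstream sequences of the hepcidin genes are shown because the genes are close copies whose patterns over these arrays differed. Hamp2 was below the control on all 6 toxin arrays and Hamp on 3 of them. Whether the sequences have a part in this was not tested. Each is the 250 bases before the annotated start, from RefSeq on GRCm38.p6, with 5 of the 7 genes found in the promoter table. Hamp lies on the minus strand with its window at chr7:30944030-30944279, and Hamp2 on the minus strand at chr7:30924182-30924431. Capitals mark the core of the BMP response element in Hamp, the STAT3 site, and the aligned bases in Hamp2.
Hamp: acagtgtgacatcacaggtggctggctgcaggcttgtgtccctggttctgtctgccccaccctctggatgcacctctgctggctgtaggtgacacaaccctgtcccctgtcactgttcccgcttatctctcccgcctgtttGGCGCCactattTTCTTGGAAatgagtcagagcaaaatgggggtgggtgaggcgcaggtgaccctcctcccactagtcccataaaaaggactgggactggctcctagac
Hamp2: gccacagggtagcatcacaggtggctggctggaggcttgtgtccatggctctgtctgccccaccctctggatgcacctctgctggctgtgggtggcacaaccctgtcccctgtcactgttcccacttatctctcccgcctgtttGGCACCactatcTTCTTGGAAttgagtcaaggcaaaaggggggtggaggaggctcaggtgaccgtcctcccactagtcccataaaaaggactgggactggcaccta

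The windows aligned over 247 bases, of which 227 (91.9%) were identical. The core letters GGCGCC, read on either strand, occurred once in Hamp, starting 109 bases before the start, and not in Hamp2, where the aligned bases carried the substitution G4A, counted from 1 at the 5′ end of the core. The same letters occurred in 9.59% of 32851 promoter windows of this length. The STAT3 letters TTCTTGGAA occurred in both genes, 97 bases before the start of Hamp and 94 before that of Hamp2, and in 0.365% of all windows. The E-box letters CANNTG matched at 2 places in each gene and in 66.2% of all windows. A match of letters is a description, not a bound site. Since the genes are so alike, the values that follow may hold signal from one transcript on the probe set of the other, which was not tested, and probe sequences were not used here.

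**Figure D1:**
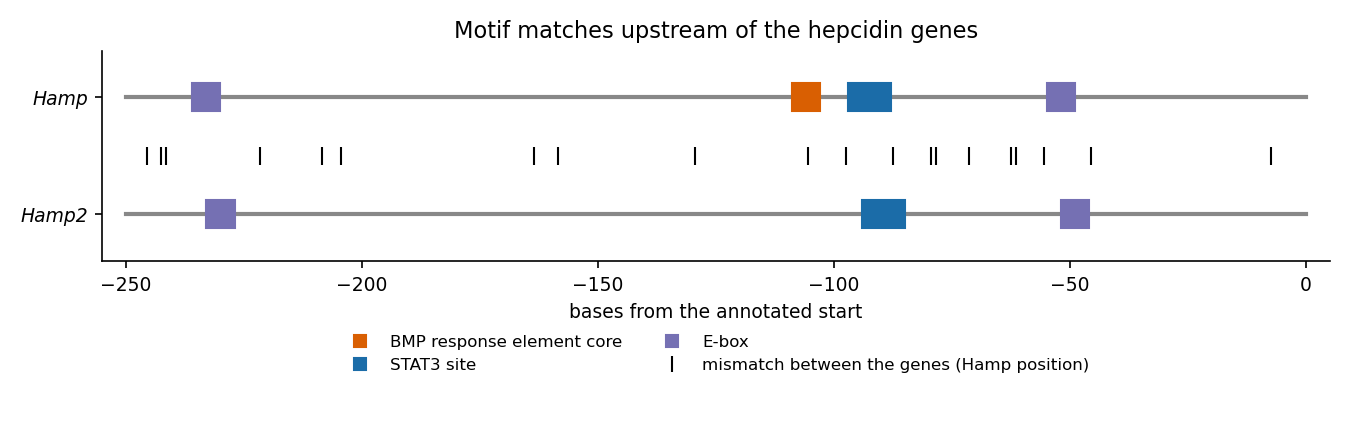
Motif matches in the 250 bases before the annotated start of Hamp and Hamp2, with distance to the start in bases on the x axis; boxes are matches and ticks the mismatches at Hamp positions. The STAT3 letters lie 97 and 94 bases before the starts of Hamp and Hamp2, and the BMP response element core matches in Hamp only, 109 bases before its start.

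Genes of the sex chromosomes set the control and 24 h arrays apart from the others, so that sex pattern and toxin at 36 h to 72 h cannot be told apart, and hepcidin genes are known to differ between the sexes in mouse liver. Xist, expressed from the inactive X chromosome of female cells, was 8.13 in the control and 9.17 at 24 h, and between 2.70 and 3.27 on the remaining 5 arrays. Eif2s3y, a Y-linked gene, was 3.81 in the control and 3.40 at 24 h, and between 7.79 and 8.39 on those 5. The labelled tissue was borne out by its markers, with the proton pump gene Atp4b between 10.68 and 12.94 on the 7 arrays. All 9 parietal cell markers were lower than the control on all 6 toxin arrays. Array medians lay above the control by 0.04 to 0.14 on the toxin arrays, and differences of that size depend on the scaling.

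Hamp2 had the largest group mean difference from the control among the members. It was 9.53 in the control; the 24 h array read 5.64 and that of 36 h 4.38, the 48 h pair 5.27 and 5.34, and the 72 h pair 5.68 and 6.82. Every toxin array lay below the control, and the nearest of them, the second 72 h array, was still 6.57-fold lower. The difference from the control was 14.8-fold at 24 h, 35.6-fold at 36 h, 18.7-fold in the 48 h mean and 9.75-fold in the 72 h mean. On the log2 scale the 48 h mean was -4.23 ± 0.56 from the control and the 72 h mean -3.29 ± 0.56 (standard error of the limma fit, 2 arrays against 1).

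Within the sex pattern that the control and 24 h arrays share, Hamp2 was -3.89 from the control. On the 5 arrays of the other pattern it was -5.15 to -2.72 from the control, a range that includes the 24 h difference. The 24 h difference within 1 sex pattern, 14.8-fold, was close to the 14.5-fold of the first 72 h array. It was larger than on the second 72 h array and smaller than on the 36 h and 48 h arrays. Each of these is 1 array against 1, and the part of sex in the Hamp2 values was not tested.

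Both 72 h arrays lay above both 48 h arrays for Hamp2, with means of 6.25 and 5.30. In limma the difference was 0.94 ± 0.46 with an adjusted p of 0.757 over all genes. The slope over the 6 toxin arrays was 0.59 ± 0.33 per 24 h, with an adjusted p of 0.672 in limma. The 24 h array is the only toxin array of its sex pattern, so sex pattern and time are mixed in every slope given here. Without the 24 h array the Hamp2 slope was 1.14 per 24 h. The 72 h arrays differed from each other by 1.14, against 0.07 between those of 48 h, so a partial return of Hamp2 at 72 h was not separated from the spread between arrays.

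**Figure D2:**
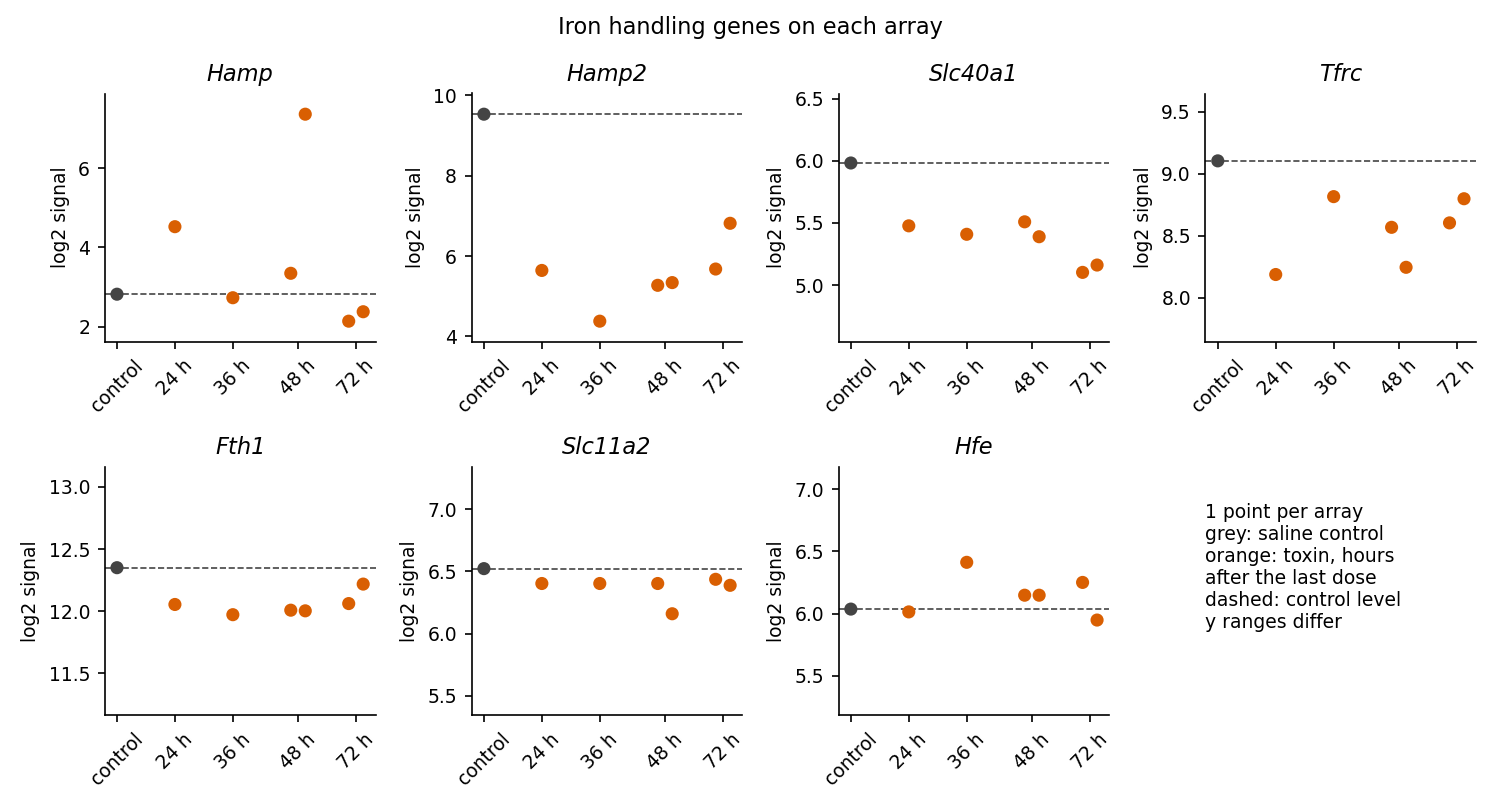
Log2 signal of the 7 iron handling genes on each array, with the saline control in grey, toxin arrays in orange by hours after the last dose, and a dashed line at the control level; y ranges differ between panels. Hamp2 is at 9.53 on the control and at 4.38 to 6.82 on toxin arrays, whereas Hamp is highest, at 7.36, on the second 48 h array.

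Parietal cell markers were lower on the toxin arrays, as Hamp2 was. Their median difference from the control was -1.92 on the 24 h array, -0.76 on that of 36 h, -1.27 and -0.86 in the 48 h pair, and -0.62 and -0.29 in the 72 h pair. Their summed linear signal was 22510 in the control and 6748 to 20258 on the toxin arrays. The order of the list median differed from that of Hamp2, which was lowest on the 36 h array, where the median of the parietal cell list was closer to the control than at 24 h. The marker Slc26a7, of an anion exchanger, lay nearer to Hamp2 in depth than the list median did. It was 8.66 in the control, 4.94 on the 24 h array and 4.63 on that of 36 h. The 48 h pair read 4.26 and 4.67, and the 72 h pair 5.28 and 4.94. Its lowest value was thus on the first 48 h array, not on that of 36 h as for Hamp2. In bulk tissue, fewer cells of a type and less RNA per cell cannot be told apart. Whether the Hamp2 signal came from parietal cells was not tested.

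Hamp2 is also expressed in the pancreas, so acinar markers were set beside it. Of 10 listed, 7 were measured, and their median difference from the control was between -0.05 and 0.09 on the 6 toxin arrays. Cpa1, a carboxypeptidase gene, was -0.13 to -0.05 from the control on the toxin arrays, and Ctrb1, of chymotrypsinogen, was between 5.27 and 5.55 on the 7 arrays. Cel, the gene of bile salt-stimulated lipase, was 7.58 on the control and 4.86 to 5.67 on the toxin arrays. Clps, the colipase gene and the brightest of the list, was 12.96 in the control and 12.37 to 12.79 on the toxin arrays. Cel, Clps and Cpa1, 3 of the 7, were lower on every toxin array, as Hamp2 was, and Cel and Clps were the brightest markers of the list in the control. The summed linear signal of the list was 8242 in the control and 5440 to 7223 on the toxin arrays, and most of it was Clps on every array. Ctrb1 was higher than the control on all 6 toxin arrays. The markers Cpa1, Cpb1, Prss2 and Cela3b lay below the array's median on every array, where signal need not scale with RNA. The part of acinar RNA in the Hamp2 values was not tested.

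Genes whose pattern was most like that of Hamp2 were ranked by Pearson correlation over the 7 arrays among 1352 genes with a range of at least 1. The 8 closest were Creb3l2, a transcription factor gene of secretory cells, Nnt, a mitochondrial transhydrogenase gene, the Golgi mannosidase gene Man1c1, the amylase gene Amy1, the co-chaperone gene Dnajc12, Sccpdh, Megf9 and Pfkfb3, a regulator of glycolysis. Their correlations were from 0.98 for Pfkfb3 to 0.99 for Creb3l2. Over the 6 arrays without the control they were from 0.91 for Pfkfb3 to 0.98 for Creb3l2. Those 6 arrays were among the 7 used to pick the genes, so nothing is read from these values. Creb3l2 was 8.34 on the control, 7.05 at 36 h and 7.71 on the second 72 h array, which were the highest, lowest and second-highest of its values, as for Hamp2. The arrays are the points of these correlations, and they share the time course.

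Hamp followed another pattern than Hamp2. It was 2.82 in the control; the 24 h array read 4.52 and that of 36 h 2.73, the 48 h pair 3.35 and 7.36, and the 72 h pair 2.14 and 2.38. The second 48 h array stood 4.02 above the first and 4.54 above the control, while both 72 h arrays were lower than all other arrays. Hamp was the member that the filter on dim genes removed, since its mean of 3.61 lay below that of the median gene; the other 6 members passed. On every array but the second 48 h array it lay below the array's median, which was 4.56 to 4.71, where signal need not scale with RNA. The log2 differences of Hamp, and its place in counts of 2-fold differences, therefore describe signal and are not folds of RNA.

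The second 48 h array also carried liver RNA markers, and Hamp is a liver gene. Albumin (Alb) was 9.60 there and 4.49 to 5.49 on the other 6 arrays. The fibrinogen gene Fgb was 4.75 there against 2.85 to 3.01, and the urea cycle gene Cps1 was 6.35 against 4.57 to 4.79. Of 10 hepatocyte markers, 7 were highest on this array and 5 were at least 2-fold above the next array. The mean of the list was 6.41 on this array, 4.82 on the first 48 h array and 4.85 to 5.04 on the others. Its summed linear signal was 1991 on this array, 1715 in the control and 633 to 868 on the others, where most of the control's sum was Ttr, of transthyretin, at 10.53 against 8.48 to 9.21 on the toxin arrays.

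Hamp was 1 of 18 genes (0.0812% of all) at least 2-fold higher on the second 48 h array than on any other. The others included the antitrypsin genes Serpina1c and Serpina1d, the urinary protein genes Mup3 and Mup20 and the plasma protein genes Ahsg, Hrg and Pzp, all known as hepatocyte products. Serpina1a, on the hepatocyte marker list, was not among them, at 3.45 both on that array and on the control. The 8 genes most like Hamp over the 7 arrays were Tat, Mup20, Saa4, Fgg, Serpina1d, Mup3, Cps1 and Hrg, with correlations from 0.88 to 0.94. Without the second 48 h array these were -0.10 to 0.64, so the likeness rested on that array. The part of liver RNA in the 48 h value of Hamp was not tested. Without the second array, Hamp at 48 h was 0.53 above the control in place of 2.54 ± 1.96 as the mean.

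On the 24 h array Hamp was 1.70 above the control. Of the 10 hepatocyte markers there, 4 were higher and 5 lower than the control. Alb was 4.84 on that array and 4.49 on the control, Tat was 4.01 on both, and Ttr was 9.18 against 10.53. Cyp2e1, another hepatocyte marker, was 7.20 on the 36 h array, where Hamp was 2.73 and Alb 4.70. The part of liver RNA in the 24 h value was not tested either. With 1 array at 24 h and 1 control, no replicate check of this value was possible.

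For Hamp at 72 h against 48 h, the limma difference was -3.10 ± 1.60, with an adjusted p of 0.757. It was -1.09 without the second 48 h array. The slope over toxin arrays was -1.01 ± 0.93 per 24 h, with an adjusted p of 0.794 in limma.

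**Figure D3:**
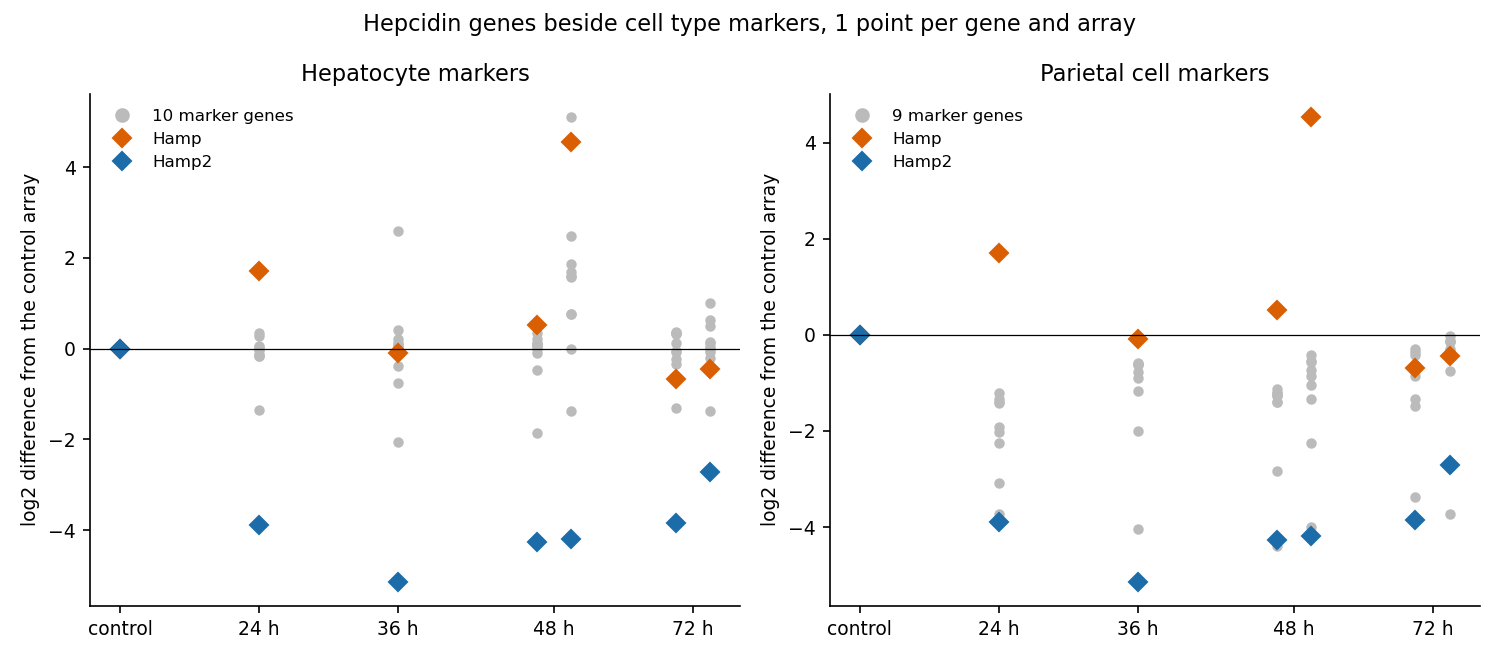
Log2 difference from the control array for Hamp (orange) and Hamp2 (blue) beside 10 hepatocyte markers (left, grey) and 9 parietal cell markers (right, grey), 1 point per gene and array. On the second 48 h array Hamp is 4.54 above the control along with most hepatocyte markers, while Hamp2 lies at -2.72 or below on each toxin array.

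**Figure D4:**
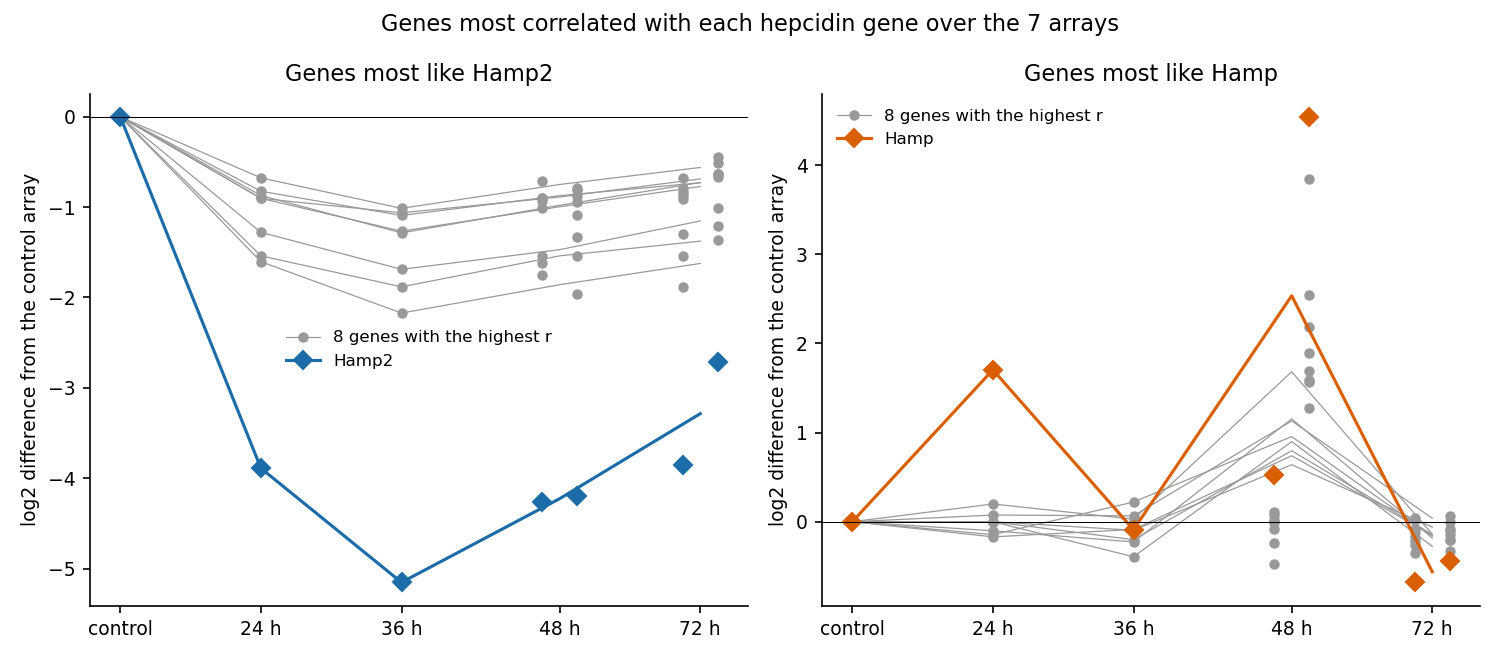
Log2 difference from the control array for Hamp2 and Hamp and for the 8 genes most correlated with each over 7 arrays; points are arrays and lines join group means. The 8 genes like Hamp2 are all lowest at 36 h, and the genes like Hamp are high on the second 48 h array only, where Hamp reached 7.36 in log2 signal.

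Genes flanking the hepcidin pair on the chromosome did not share either pattern. Usf2, the transcription factor gene next to Hamp, stayed between 6.11 and 6.54 on the 7 arrays. Mag, a myelin gene on the Hamp2 side, stayed between 3.63 and 3.90, and Lsr, beyond Usf2, between 9.02 and 9.34. These were picked for their position, and ranged over less than 1 log2 unit where Hamp and Hamp2 ranged over 5.22 and 5.15.

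Among the genes that set hepcidin output, Hfe, whose product takes part in iron sensing upstream of hepcidin, stayed close to the control. It was 6.04 on the control, 6.01 at 24 h, 6.41 at 36 h, 6.15 on each 48 h array, and 6.25 and 5.95 in the 72 h pair. The control lay inside the range of the toxin arrays. The difference was 0.11 ± 0.16 at 48 h, and the second 48 h array went from 0.11 above to -0.03 from the control with array medians subtracted. The 72 h mean was -0.05 ± 0.13 from the 48 h mean, with an adjusted p of 0.907 in limma, and the slope was -0.03 ± 0.09 per 24 h, with an adjusted p of 0.958.

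The remaining genes of hepcidin control differed in both directions, and Bmp4 was the farthest from the control. Bmp4, a BMP ligand gene, was 8.58 on the control and 7.38 to 7.82 on the toxin arrays, which was -1.05 at 24 h, and was -0.98 ± 0.23 from the control at 48 h, with an adjusted p of 0.182 in limma. Id1, a target gene of BMP signalling, was 8.04 on the control and 8.22 to 8.74 on the toxin arrays. Neo1, a co-receptor gene of this pathway, was -0.70 from the control at 36 h. Bmp6, the ligand best known for driving hepcidin in liver, was 5.63 on the control and 5.04 to 5.18 on the toxin arrays, and Il6 was between 2.49 and 2.85 on the 7 arrays; both were singled out after their values were seen. All 28 genes of this list, of which Hamp, Hamp2 and Hfe are members, were measured. On the 24 h array 15 were higher than the control and 12 lower, with a list median of 0.02. The 36 h array had 10 higher and 16 lower (median -0.06). In the 48 h pair, 7 were higher on both arrays and 13 lower on both (median of the means -0.03). In the 72 h pair this held for 5 and 14 (median -0.10). The counts for all 22180 genes were 9939 higher against 10334 lower on the 24 h array, and 9853 against 10295 at 36 h. For the pairs they were 7081 against 7632 (48 h) and 7583 against 7518 (72 h).

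The exporter gene Slc40a1 was lower on every toxin array. It was 5.98 in the control; the 24 h array read 5.48 and that of 36 h 5.41, the 48 h pair 5.51 and 5.39, and the 72 h pair 5.10 and 5.16. The 72 h arrays were the lowest, below all 4 earlier toxin arrays, and the gap within each pair was 0.12 or less. The difference from the control was -0.53 ± 0.08 at 48 h and -0.85 ± 0.08 at 72 h, or 1.45-fold and 1.80-fold. In limma the 72 h mean was -0.32 ± 0.07 from the 48 h mean, with an unadjusted p of 0.0150 and an adjusted p of 0.705. The slope was -0.18 ± 0.05 per 24 h, with an unadjusted p of 0.0122 and an adjusted p of 0.462.

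Ferroportin is abundant in macrophages that recycle iron, so macrophage markers were set beside Slc40a1. The median difference of the 8 markers was 0.05 on the 24 h array, -0.01 on that of 36 h, -0.08 and -0.10 in the 48 h pair, and -0.17 and -0.01 in the 72 h pair. Adgre1, which encodes F4/80, was between 5.09 and 5.39 on the 7 arrays and Csf1r between 5.76 and 6.36. Cd68 was 7.37 at 24 h and 7.73 on the first 48 h array, against 6.17 to 6.59 on the others. The macrophage list was thus nearer to the control than Slc40a1 on every toxin array, and its part in the Slc40a1 values was not tested.

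Tfrc, the transferrin receptor gene through which most cells import iron, was also lower on all toxin arrays. It was 9.10 in the control; the 24 h array read 8.19 and that of 36 h 8.82, the 48 h pair 8.57 and 8.25, and the 72 h pair 8.60 and 8.80. The lowest values were on the 24 h array and the second 48 h array. The difference was -0.70 ± 0.19 at 48 h and -0.40 ± 0.19 at 72 h. Between 48 h and 72 h it was 0.29 ± 0.15, with an adjusted p of 0.757 in limma, and the slope was 0.17 ± 0.12 per 24 h, with an adjusted p of 0.745.

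Dividing cells are known for high Tfrc, and the markers of division went the other way. All 6 were higher than the control on all 6 toxin arrays, with a median difference of 1.84 at 24 h, where Tfrc was lowest, 1.43 at 36 h, 1.55 and 1.28 in the 48 h pair, and 0.99 and 0.65 in the 72 h pair. Mki67 was 7.69 on the control and 9.64 at 24 h. Of 7 erythroid markers only 3 were measured (Slc4a1, Epb42 and Ermap), and all 3 lay between 3.43 and 4.41 on the 7 arrays.

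Slc11a2, the gene of the importer DMT1, differed little. It was 6.52 in the control; the 24 h array read 6.40 and that of 36 h 6.40, the 48 h pair 6.40 and 6.16, and the 72 h pair 6.44 and 6.39. The values at 24 h, 36 h and on the first 48 h array were equal in the deposited table. All toxin arrays were lower than the control, by 0.09 to 0.36. The 72 h mean was 0.13 ± 0.11 from the 48 h mean, with an adjusted p of 0.757 in limma, and the slope was 0.01 ± 0.06 per 24 h, with an adjusted p of 0.982.

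The other uptake genes included Cybrd1, the gene of a ferric reductase that acts with DMT1. Cybrd1 was 8.72 on the control, 8.10 at 24 h, 8.65 and 6.90 in the 48 h pair, and 8.76 to 8.79 on the 36 h and 72 h arrays. Its lowest values were on the 2 arrays where Hamp was highest, the second 48 h array with its liver markers and the 24 h array. This was picked out after the values were seen, and a link was not tested. The metal importer gene Slc39a8 was 0.96 and the reductase gene Steap4 0.86 above the control at 24 h. Enterocyte markers, as a check for intestinal tissue, had a median difference between -0.30 and 0.05 on the toxin arrays, with the enterocyte gene Sis between 2.73 and 2.82 on the 7 arrays. Its members went both ways: Apoa4 was 9.30 on the control and 6.60 to 7.79 on the toxin arrays, while Fabp2, of a fatty acid-binding protein, was higher than the control on all 6, by 1.36 and 1.09 in the 72 h pair.

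Fth1, the gene of the ferritin heavy chain that oxidises and stores iron, was 12.35 in the control; the 24 h array read 12.05 and that of 36 h 11.97, the 48 h pair 12.01 and 12.00, and the 72 h pair 12.06 and 12.22. Each toxin array was lower, and the second 72 h array was the closest to the control. The difference was -0.34 ± 0.09 at 48 h and -0.21 ± 0.09 at 72 h. Between 48 h and 72 h it was 0.13 ± 0.07, with an adjusted p of 0.757 in limma. The slope was 0.07 ± 0.05 per 24 h, with an adjusted p of 0.729. Ncoa4, whose product delivers ferritin for breakdown, was 7.44 on the control and 6.58 to 7.04 on the toxin arrays.

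Over the 7 members, 5 (Hamp2, Slc40a1, Tfrc, Fth1 and Slc11a2) were lower than the control on all 6 toxin arrays, where 22.6% of all genes were. This contrast was in view when the members were chosen, and nothing is read from the count. At least 2-fold differences from the control were found for 2 members at 24 h (Hamp and Hamp2, against 2.88% of all genes), 1 at 36 h (Hamp2, against 2.54%), 2 in the 48 h mean (Hamp and Hamp2, against 2.2%) and 1 in the 72 h mean (Hamp2, against 1.51%). Between the arrays of a pair, Hamp differed at least 2-fold at 48 h, as did 0.482% of all genes, and Hamp2 at 72 h, as did 0.32%. The 72 h arrays did not overlap those of 48 h for 5 members (Hamp, Hamp2, Slc40a1, Tfrc and Fth1), against 29.8% of all genes. Limma called 0 of 22180 genes (0%) in each of 48 h against control, 72 h against control, 72 h against 48 h and the slope over toxin arrays, so no member was called. Over all genes, the counts against the control with array medians subtracted were 167 at 48 h and 30 at 72 h. On the values as deposited, limma gave 4375 genes at an unadjusted p under 0.05 for 48 h and 3978 for 72 h against the control. It gave 1569 for 72 h against 48 h and 1929 for the slope.

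Beyond the members, 80 of 88 further listed genes of iron handling were measured. Of these, 28 (35%) were lower than the control on all 6 toxin arrays while 11 were higher on all 6. Over all 22180 genes, 5002 (22.6%) were lower and 4490 higher on all 6. Their median difference was -0.04 for both 24 h and 72 h and -0.07 for both 36 h and 48 h, where the median of all genes was 0 each time. Of the 80, 1 was at least 2-fold from the control at 24 h (Bmp4, lower) and 0 in the 36 h value and the 48 h and 72 h means. Limma called 0 in each comparison, with 24 at an unadjusted p under 0.05 at 48 h and 21 at 72 h. Over all 22180 genes, limma gave 4375 and 3978 at that unadjusted p. The lists are described by their counts and medians only.

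Genes of heme synthesis and turnover went both ways. Urod, of heme synthesis, was 7.18 on the control and 6.25 to 6.88 on the toxin arrays. Fech, which inserts iron into heme in mitochondria, was 8.02 on the control and 7.26 to 7.61 on the toxin arrays, and -0.70 ± 0.06 from it at 48 h, with an adjusted p of 0.120 in limma. Alad, an early enzyme of the same pathway, was 6.80 on the control and 7.11 to 7.68 on the toxin arrays. Blvrb, a biliverdin reductase gene, was 0.60 ± 0.13 above the control at 48 h, with an adjusted p of 0.177 in limma. Of the 19 measured genes of this list, 8 were lower and 4 higher on all 6 toxin arrays, against 5002 (22.6%) lower and 4490 higher of all 22180 genes. Abcg2, an exporter gene for porphyrins, was 5.46 on the control and 4.66 and 4.97 at 72 h.

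Genes of heme-binding and iron-binding secreted proteins varied. Hp, of haptoglobin, was -0.05 from the control at 24 h, 0.98 above it at 36 h and 0.67 at 72 h. The lactoferrin gene Ltf was 0.70 above it at 36 h and -0.17 from it on the second 72 h array. Lcn2, of lipocalin 2, was between 4.90 and 5.13 on the 7 arrays, and Cp, of ceruloplasmin, between 5.47 and 5.74. Hpx, of hemopexin, was 0.56 ± 0.22 above the control at 48 h, with an adjusted p of 0.320 in limma; it is also 1 of the hepatocyte markers and was highest, at 5.52, on the second 48 h array. Among genes of mitochondrial iron and iron-sulfur clusters, 7 of 15 were lower and 1 higher on all toxin arrays. Of all 22180 genes, 5002 (22.6%) were lower and 4490 higher on all of them. Iscu, the scaffold of iron-sulfur cluster assembly, was 6.64 on the control and 5.85 to 6.26 on the toxin arrays, and -0.73 ± 0.07 at 48 h, with an adjusted p of 0.121 in limma.

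**Figure D5:**
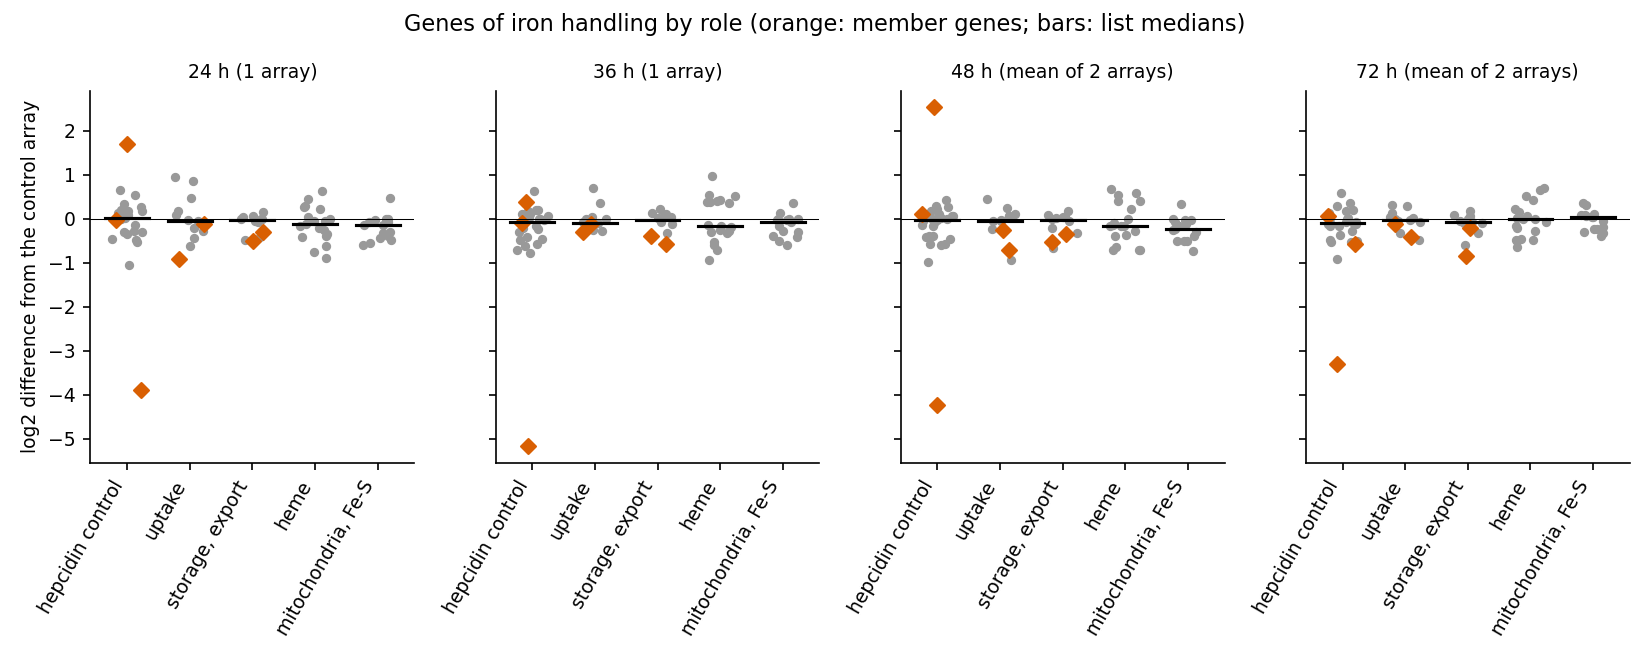
Log2 difference from the control array for 87 genes of iron handling in 5 lists by role at each time, with members in orange, other genes in grey and bars at list medians. Hamp2 lies far below the other genes at every time, and Hamp lies above them at 24 h and 48 h.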

How the data were processed

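Biotinylated cDNA from total RNA of snap-frozen corpus was read on 7 arrays. Per the submitters' processing notes, the authors used RMA in Partek, which gave the deposited log2 signal of 41345 probe sets; no version of either is stated. Values were used as deposited. The 23521 probe sets with 1 annotated gene were reduced to the highest-mean probe set of 22180 genes, and other samples' columns number 0. The model was a limma fit (limma 3.58.1, R 4.3.3) to all 7 arrays with a mean per group (2 residual and 1.15 prior degrees of freedom), and for a slope over the 6 toxin arrays (4 and 1.83). The lone control is assumed to vary like the pairs, and since the labels call a pair independent samples without saying whether these were separate mice, p-values measure only the spread between arrays. A Benjamini-Hochberg adjusted p under 0.05 over all genes was called. On simulated data, only the limma fit of 48 h against control was tried, and only the size of planted differences was checked.

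The members and gene lists were chosen with earlier results of these data known. Named genes were the 7 members, marker genes of the lists for parietal, hepatocyte, pancreatic acinar, enterocyte, macrophage, erythroid, squamous and dividing cells, the 3 largest differences in each direction per time among iron genes, and the 8 genes most correlated with each hepcidin gene; predicted genes were left unnamed. Promoters were aligned with Biopython 1.88. Alternatives covered scaling, probe set choice, dim genes, ties, each toxin array left out and the replicate number as a block. The control was never left out, and the 24 h and 36 h arrays were left out for the slope only.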

Additional observations from a re-analysis of the deposited data

Results flagged for a closer look

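The sign of the Hamp difference from the control varied between times, with values at or below the control that lie in the dim range and within its spread between arrays. It was 1.70 above the control at 24 h but -0.09 from it at 36 h and -0.56 in the 72 h mean, and -0.0889 at 36 h against 2.54 in the 48 h mean. Hfe was -0.0226 from the control at 24 h and 0.38 above it at 36 h. The 24 h and 36 h groups hold 1 array each, and these differences between times were not tested.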

How the results depend on the processing

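With array medians subtracted, limma called 167 genes at 48 h and 30 at 72 h against the control, with quantile normalisation again 7 and 5, and 143 and 52 when genes with fewer than 6 distinct values were dropped, in place of 0; the cause was not tested. Of the 87 iron genes, 1 was called with array medians subtracted, in place of 0; it was Hamp2, chosen with that difference known, so nothing is read from the call. Median differences of the 87 iron genes, -0.04, -0.08, -0.09 and -0.06 at 24, 36, 48 and 72 h, became -0.12, -0.18, -0.21 and -0.11 with array medians subtracted, -0.0816 at 24 h and -0.14 at 36 h with quantile normalisation again, and -0.12 at 24 h and -0.15 at 48 h without dim genes. Hfe at 72 h against 48 h became 0.0187 with array medians subtracted. With arrays left out it ran from -0.20 to 0.10, its slope from -0.16 to 0.0583 and the Slc11a2 slope from -0.0184 to 0.048. Without the 24 h array, slopes per 24 h were -1.24 for Hamp, 1.14 for Hamp2, -0.23 for Slc40a1 and 0.05 for Tfrc. They were 0.12 for Fth1, 0.05 for Slc11a2 and -0.16 for Hfe. Hamp at 48 h, 2.54 above the control, was 0.53 above it without the second array and 4.54 without the first. With array medians subtracted, Slc40a1 at 24, 36 and 48 h became -0.58, -0.67 and -0.65 from the control, and Fth1 at 36 and 48 h -0.48 and -0.46. With the replicate block, 72 h against 48 h gave 0 called genes (smallest adjusted p 0.800), and 0 with the numbers crossed, a choice made after seeing the data because differences within the pairs had a correlation of -0.13 across genes; the labels do not say that the numbers pair arrays. Squamous forestomach markers varied between arrays of a time, with Sprr3 at 2.52 and 5.39 at 48 h and 5.64 and 2.33 at 72 h.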
